A study of Homo sapiens with 32 samples.

Results

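Integrator is a large protein complex that binds RNA polymerase II and carries both an RNA endonuclease and the phosphatase PP2A. It cuts the 3′ ends of small nuclear RNA precursors and terminates transcription at many protein-coding genes soon after polymerase has paused near the start. Its subunits are arranged in modules, which are known as cleavage, phosphatase, backbone, shoulder and arm, and 1 subunit is shared with the SOSS complex of DNA repair. The results here cover the knockouts of 14 subunits, INTS1 to INTS14, in a pooled CRISPR-knockout screen. The members were taken by name, through the Ensembl identifier in the name of each sgRNA, and each subunit was targeted by 4 sgRNAs. They make up 56 of the 74552 sgRNAs directed against genes, in a library table of 74987 sgRNAs, and 14 of 18638 genes.

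The screen was run in RKO cells, an established human colorectal cancer line labelled as wild type, into which Kinprola_PKA and Cas9 had been stably introduced by lentivirus. Kinprola_PKA is a split-HaloTag recorder that becomes covalently labeled by the fluorescent substrate CPY-CA when protein kinase A (PKA) is active, and its EGFP serves to normalize the label. Cells with 1 knockout each, for the large majority, were sorted by CPY-CA/EGFP into high (about 25%), low (about 25%) and medium (about 50%) populations, and T0 is the day 0 control. The 2 screens, which the study states were independent, are numbered 2 and 3 in the sample labels, and each gave 1 library of each population and of T0. The T0 libraries are labelled as RKO cells of day 0 with the same protocol text as the sorted cells, and nothing further was found on how they were taken. No untransduced or recorder-free cells were compared.

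Reads of the sgRNA cassette were counted in genomic DNA, so that read numbers follow the number of cells carrying each knockout in a population, and neither RNA, protein nor editing at the target sites was measured. More reads in high than in low mean that cells with that knockout more often had a high CPY-CA/EGFP ratio. The 8 libraries held 23369720 to 31777138 reads, with medians of 260 to 356 reads per sgRNA. Counts are given as scaled reads, that is, scaled to the mean library total of 27695208 reads, and values of 2 libraries are always those of screen 2 and then screen 3. The log2 fold change of a gene was taken within each screen with 1 read added, averaged over its 4 sgRNAs, and tested by limma over both screens, with an adjusted p under 0.05 as the threshold. With 2 screens, limma's p draws mainly on the spread shared by all genes and takes no account of how many reads lie behind an sgRNA. The members' sgRNAs ranged in mean depth from 24.9 scaled reads (sgRNA 1 against INTS2) to 879.4 (sgRNA 2 against INTS10), and 4 of the 56 had under 50. The 278 sgRNAs without a human target had a median log2 fold change of −0.11 in high versus low and 0.24 in the sorted pool versus T0.

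Knockouts of Integrator subunits did not move as one between the high and low populations. INTS9 and INTS4 were enriched most in high relative to low, INTS5, INTS2, INTS1 and INTS11 were enriched too, and INTS12 was depleted. The place of INTS5 in this order rested on 1 sgRNA with few reads, since with a minimum of 50 mean reads its log2 fold change was 0.46, below INTS2 (0.75) and INTS1 (0.55), in place of 1.05. The count was 6 of 14 subunits higher and 1 lower, against a background of 5.25% of all genes higher (979) and 2.73% lower (508) in the same limma test. The subunits were chosen with earlier results of these data known, so this background is a description and not a test. Means of a gene are over n = 2 screens throughout. The median log2 fold change was 0.25 over the 14 subunits and −0.01 over all genes. An unadjusted p under 0.05 was seen for 10 of the 14, and for 3285 of all 18638 genes (limma). By summed reads, both high libraries lay above both low libraries for 7 subunits, below them for 3, and the libraries overlapped for 4. This separation was not counted over all genes, so these numbers only describe the 14 subunits. When fold changes were centred on the sgRNAs without a target, the split over all genes moved to 1111 higher and 308 lower, 7 subunits were higher with INTS8 added, and INTS12 no longer passed.

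At the level of single sgRNAs, 11 of the 56 were enriched in high relative to low and 3 were depleted in edgeR's test, against 2.94% and 1.55% of the 74339 sgRNAs tested. The enriched sgRNAs fell on 7 subunits, and INTS9 was the subunit with all 4. The depleted ones were 1 each against INTS12, INTS10 and INTS13. Of the 56, 25 had a positive log2 fold change in both screens, 11 a negative one in both, and 20 changed sign between the screens. Of 275 tested sgRNAs without a target, 0 were enriched and 3 depleted.

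In the cleavage module, INTS11 is the endonuclease, INTS9 is its catalytically inactive partner, and INTS4 is the scaffold that holds the pair. These are the Integrator counterparts of CPSF3, CPSF2 and symplekin in the machinery that cuts messenger RNA precursors. INTS9 lies on chromosome 8 at 28767661 to 28890242 (GRCh38, minus strand). Its 4 sgRNAs together had 1510.5 and 1189.8 scaled reads in high, against 529 and 345 in low, with 895 and 577 in medium and 1916.5 and 2026 at T0. Both high libraries exceeded both low libraries by a wide margin, with medium between them and T0 above all. The gene's log2 fold change was 1.497 and 1.87 in the 2 screens, with a mean of 1.69 ± 0.12 (SE, adjusted p = 2.38e-06, limma), and it passed under every alternative tried for this comparison. If the gates held the stated shares of cells, 39.4% and 44.2% of the reads of the sorted pool lay in high and 13.8% and 12.8% in low.

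Every sgRNA against INTS9 shifted the same way. For sgRNA 3, high had 395 and 302 scaled reads and low 114 and 37.3, a log2 difference of 1.78 and 2.99 (adjusted p = 3.53e-16, edgeR). sgRNA 4 had 524 and 371 in high and 178 and 115 in low, and sgRNA 1 had 333 and 268 and 97.2 and 101 in the same order of populations. sgRNA 2 moved least, with 259 and 249 in high against 139 and 92.1 in low (adjusted p = 0.00105, edgeR). The mean log2 fold changes of the 4 sgRNAs thus ran between 1.16 and 2.38, and no high library fell below a low library of the same sgRNA.

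INTS4 (77874418 to 77994715, chromosome 11, minus strand) shifted the same way. Its sgRNAs together had 598 and 563 scaled reads in high, against 278 and 277 in low, with 365 and 389 in medium and 973 and 934 at T0. The 2 libraries of each population were close to each other, and high was clear of low. The log2 fold change was 1.77 and 1.25, with a mean of 1.51 ± 0.13 (SE, adjusted p = 1.17e-05, limma), and the call held under every alternative tried. sgRNAs 1 and 3 were enriched by themselves, with 298 and 281 scaled reads in high against 155 and 141 in low for sgRNA 3 (adjusted p = 0.0026, edgeR) and 196 and 182.5 against 78.0 and 104 for sgRNA 1 (adjusted p = 0.0158, edgeR). sgRNA 2 had 64.5 and 55.7 against 43.8 and 18.6 (adjusted p = 0.453, edgeR). sgRNA 4 had the largest fold change, 4.28 and 1.66, but few reads, 39.2 and 43.8 in high and 1.1 and 13.2 in low (adjusted p = 0.0777, edgeR). With sgRNA 4 removed by a minimum of 50 mean reads, the gene's log2 fold change was 1.02, with a 95% interval of 0.79 to 1.25 (adjusted p = 2.29e-08, limma). Adjusted p values under this minimum, here and below, cannot be compared with those over all sgRNAs, since the fit changed for every gene. INTS9, which kept its 4 sgRNAs and its value of 1.69, had 1.06e-12 in place of 2.38e-06 (limma).

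INTS11, the catalytic subunit (chromosome 1, 1311585 to 1324687, minus strand), shifted less than either partner. Its sgRNAs had 1824 and 1404 scaled reads in high, against 1278 and 1141 in low, with 1481 and 1359 in medium and 1568 and 1780.5 at T0. The high libraries still lay above the low ones, by a narrower margin. The log2 fold change was 0.55 and 0.33, with a mean of 0.44 ± 0.11 (SE, adjusted p = 0.0315, limma). Its 95% interval of 0.20 to 0.69 lies below the intervals of 1.22 to 1.80 for INTS4 and 1.42 to 1.95 for INTS9. Such intervals hold the spread between screens and not that between sgRNAs, and the difference between the subunits was not tested. All 4 sgRNAs were positive in both screens, at means between 0.28 and 0.57, and 1 passed edgeR, sgRNA 2 with 657 and 425 in high against 431 and 294 in low (adjusted p = 0.0195). sgRNA 3 had 845.5 and 700.4 against 617 and 648, sgRNA 4 214 and 211 against 169 and 134, and sgRNA 1 107 and 67.6 against 60.9 and 65.8, and these did not pass. The call of INTS11 was lost when any 1 of the high or low libraries was left out (adjusted p = 0.0506 to 0.468, limma).

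In the phosphatase module, INTS8 holds the PP2A core enzyme on the complex and INTS6 is its other contact. Neither passed in high versus low. INTS8 had 729.5 and 610.3 scaled reads in high, against 674 and 519.5 in low, with 676 and 538 in medium and 955 and 855.5 at T0. The high and low libraries overlapped across screens, although high was above low within each. Its log2 fold change was 0.28 and 0.39, with a mean of 0.34 ± 0.11 (SE, adjusted p = 0.102, limma) and a 95% interval of 0.10 to 0.57, and it passed when the median over sgRNAs was used (adjusted p = 0.0417, limma). sgRNAs 2 and 4 of INTS8 were positive in both screens, at 0.74 and 1.02 and at 0.31 and 0.92. sgRNA 1, at 0.15 and −0.50, and sgRNA 3, at −0.09 and 0.12, changed sign.

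INTS6 had 1149 and 1328.5 scaled reads in high, against 1115 and 1076 in low, with 1272 and 1156 in medium and 1318 and 1518.5 at T0. The high libraries lay just above the low ones in the summed reads, while the gene's log2 fold change was −0.0044 and 0.35, with a mean of 0.17 ± 0.12 (SE, adjusted p = 0.54, limma). Of its 4 sgRNAs, 1 passed by itself. This was sgRNA 3, which had 358 and 415 scaled reads in high against 265 and 218 in low (adjusted p = 0.0179, edgeR), and the other three changed sign between the screens.

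In the backbone, INTS1 is the largest subunit and a scaffold, INTS2 and INTS7 pack along it, and INTS12 is a small PHD-finger protein anchored to INTS1. INTS2 (chromosome 17, 61865367 to 61928016, minus strand) had 1263 and 1305 scaled reads in high, against 1002 and 955 in low, with 1128.5 and 1171 in medium and 1249 and 1407 at T0. High lay above low in both screens. Its log2 fold change was 0.34 and 1.37, unequal between the screens, with a mean of 0.85 ± 0.19 (SE, adjusted p = 0.0131, limma). sgRNA 2 had the largest mean shift of the 4, with 199.6 and 248 in high against 115 and 59.2 in low (adjusted p = 0.000105, edgeR). sgRNA 4 had 177 and 150.5 against 113 and 93.2, sgRNA 3, with the most reads of the gene, had 877 and 882 against 761 and 799, and sgRNA 1 had 9.6 and 24.9 against 11.7 and 3.3, with log2 fold changes of −0.27 and 2.59. Without the high library of screen 3 the gene's adjusted p was 0.251, and without the low library of that screen 0.392 (limma).

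INTS1 (chromosome 7, 1470277 to 1504389, minus strand) had 574 and 641 scaled reads in high, against 459 and 397 in low, with 506 and 469 in medium and 788 and 807 at T0. The high libraries were above the low ones with medium between them. The log2 fold change was 0.45 and 0.65, with a mean of 0.55 ± 0.11 (SE, adjusted p = 0.00816, limma). sgRNA 1 was enriched by itself, with 247.5 and 305 in high against 175 and 137 in low (adjusted p = 0.0193, edgeR). sgRNAs 2 and 3 were positive in both screens, at 0.92 and 0.55 and at 0.57 and 0.69, and sgRNA 4 was at −0.20 and 0.21. The gene did not pass without the high library of screen 3 (adjusted p = 0.115), the low library of screen 2 (0.0739) or the low library of screen 3 (0.179, limma).

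INTS12 (chromosome 4, 105682627 to 105895986, minus strand) was the subunit that moved the other way. Its sgRNAs had 1218 and 1449 scaled reads in high, against 1706.5 and 1847 in low, with 1447 and 1571 in medium and 1455 and 1602 at T0. Here both high libraries lay below both low libraries, and by the shares of the gates 20.9% and 22.5% of the pool's reads were in high and 29.3% and 28.7% in low. The log2 fold change was −0.60 and −0.36, with a mean of −0.48 ± 0.11 (SE, adjusted p = 0.0202, limma). All 4 sgRNAs were negative in both screens, with means between −0.98 and −0.18. sgRNA 4 passed edgeR, with 537 and 681 in high against 768 and 864 in low (adjusted p = 0.0332). sgRNA 1 had 597 and 636 against 778.5 and 789, sgRNA 2 53.2 and 85.3 against 122 and 147, and sgRNA 3 30.5 and 46.2 against 38.4 and 47.1. The gene did not pass when centred on sgRNAs without a target (adjusted p = 0.0736) or without the high library of screen 2 (0.396), the low library of screen 2 (0.334) or that of screen 3 (0.298, limma). INTS7 had 1215 and 1244 scaled reads in high, against 1216 and 1009 in low, with 1109 and 1151 in medium and 1438 and 1430.5 at T0. Its high and low libraries overlapped, and its log2 fold change was −0.28 and 0.22, with a mean of −0.03 ± 0.13 (SE, adjusted p = 0.937, limma) and a 95% interval of −0.32 to 0.25. The means of its sgRNAs lay between −0.23 and 0.32, and 0 of the 4 passed edgeR.

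INTS5, the shoulder subunit (chromosome 11, 62646848 to 62653302, minus strand), had 926.5 and 808 scaled reads in high, against 689.9 and 579 in low, with 721 and 770.1 in medium and 1156 and 1193 at T0. High exceeded low in both screens. Its log2 fold change was nearly the same in each, 1.06 and 1.05, with a mean of 1.05 ± 0.11 (SE, adjusted p = 3.97e-05, limma), and it passed under every alternative tried. The 4 sgRNAs were unequal. sgRNA 3 had 402 and 328 in high against 233 and 197 in low and passed edgeR (adjusted p = 0.0112), and sgRNA 4 had 220.5 and 191 against 142 and 118 (adjusted p = 0.19, edgeR). sgRNA 1 had 14.8 and 20.1 scaled reads in high against 1.1 and 2.2 in low and did not pass (adjusted p = 0.287, edgeR). sgRNA 2 changed sign between the screens, at −0.12 and 0.04 on the log2 scale, with 289 and 269 in high against 314 and 261 in low. Its mean depth of 303.9 scaled reads was close to the 319 of sgRNA 3. With sgRNA 1 removed by a minimum of 50 mean reads, the gene's log2 fold change was 0.46 (adjusted p = 0.00425, limma).

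INTS10, INTS13 and INTS14 form the arm of the complex, in which INTS13 and INTS14 pair with each other. None of them passed the gene test in high versus low, and all 3 mean fold changes were negative. INTS10 had 1627 and 1606 scaled reads in high, against 2134 and 1990.3 in low, with 1829 and 2179 in medium and 1579 and 1808 at T0. Both high libraries lay below both low libraries. Its log2 fold change was −0.36 and −0.37, with a mean of −0.36 ± 0.11 (SE, adjusted p = 0.0687, limma), and all 4 sgRNAs were negative in both screens. sgRNA 2, the deepest of the 56, passed edgeR with 705 and 803.5 in high against 1058 and 939 in low (adjusted p = 0.0163). The gene did pass when 5 reads were added in place of 1 (adjusted p = 0.0379), with a minimum of 50 mean reads (0.0313) or with the median over sgRNAs (0.0403, limma). The minimum removed no sgRNA of INTS10, whose lowest mean depth was 225 scaled reads. Its log2 fold change stayed at −0.36, so that its p changed through the other genes in the fit.

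INTS13 had 1469.6 and 1678 scaled reads in high, against 2019 and 1888 in low, with 1839 and 1670.4 in medium and 1566 and 1568 at T0. High was below low without overlap, and the log2 fold change was −0.47 and −0.15, with a mean of −0.31 ± 0.12 (SE, adjusted p = 0.177, limma). Its sgRNA 1 passed edgeR, with 330.3 and 372 in high against 562 and 563 in low (adjusted p = 0.00207), and the means of its sgRNAs lay between −0.68 and −0.08. INTS14 had 849.8 and 980.1 scaled reads in high, against 939.8 and 976.5 in low, with 963 and 897 in medium and 964 and 903.5 at T0. The high and low libraries overlapped. Its log2 fold change was −0.24 and 0.006, with a mean of −0.12 ± 0.11 (SE, adjusted p = 0.694, limma) and a 95% interval of −0.37 to 0.13, and its sgRNAs had means between −0.30 and 0.01.

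INTS3, which is shared with the SOSS complex, had 848 and 927 scaled reads in high, against 1013 and 704 in low, with 891 and 891 in medium and 1193 and 1195 at T0. The high and low libraries overlapped, because low was above high in screen 2 and below it in screen 3. The gene's log2 fold change was −0.33 and 0.43, with a mean of 0.05 ± 0.16 (SE, adjusted p = 0.912, limma) and a 95% interval of −0.29 to 0.40. All 4 sgRNAs of INTS3 changed sign between the screens in the same direction, sgRNA 3 the most at −0.58 and 0.74. sgRNA 4 was at −0.56 and 0.48, sgRNA 2 at −0.11 and 0.36 and sgRNA 1 at −0.05 and 0.15.

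The medium population, which the sample labels call basal, shows on which side a knockout shifted. In low versus medium, 0 of 14 subunits were higher and 2 were lower, INTS5 and INTS9, against 1.18% of all genes higher and 1.54% lower. INTS9 had a log2 fold change of −0.71 and −0.80, with a mean of −0.76 ± 0.10 (SE, adjusted p = 0.0062, limma), and INTS5 of −0.81 and −0.80, with a mean of −0.81 ± 0.10 (SE, adjusted p = 0.00432, limma). For INTS5 this rested on sgRNA 1, with 1.1 and 2.2 reads in low against 17.3 and 10.7 in medium, and without it the value was −0.24 (adjusted p = 0.5, limma). Leaving out the low library of screen 2 or of screen 3 ended the call for INTS9 (adjusted p = 0.108 and 0.248) and for INTS5 (0.0888 and 0.102, limma). INTS4, at −1.08 and −0.33, did not pass (mean −0.70 ± 0.16 SE, adjusted p = 0.0725, limma), nor did INTS12, at 0.21 and 0.39 (mean 0.30 ± 0.11 SE, adjusted p = 0.303, limma). The screen 2 value of INTS4 drew on its sgRNA 4, with 1.1 reads in low against 20 in medium. Without that sgRNA, INTS4 was at −0.32 and −0.58 (mean −0.45, adjusted p = 0.0519, limma). The remaining 10 subunits lay between −0.38 (INTS2) and 0.16 (INTS14).

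In high versus medium, 2 of 14 subunits were higher and 0 lower, against 1.70% of all genes higher and 0.0966% lower. INTS9 was at 0.79 and 1.07, with a mean of 0.93 ± 0.11 (SE, adjusted p = 0.0218, limma), and INTS4 at 0.69 and 0.92, with a mean of 0.80 ± 0.11 (SE, adjusted p = 0.0282, limma). Without its sgRNA 4, INTS4 was at 0.57 (adjusted p = 0.0363, limma). INTS4 did not pass without the high library of screen 2 (adjusted p = 0.243), the high library of screen 3 (0.128) or the medium library of screen 3 (0.208, limma). INTS2 was at 0.21 and 0.75 (mean 0.48 ± 0.15 SE, adjusted p = 0.356, limma) and INTS11 at 0.58 and 0.18 (mean 0.38 ± 0.13 SE, adjusted p = 0.392, limma). INTS5 was at 0.25 and 0.25 (mean 0.25 ± 0.09 SE, adjusted p = 0.481, limma). Beside its −0.81 in low versus medium this was small, but without sgRNA 1 the values were 0.22 in high versus medium and −0.24 in low versus medium. The other nine subunits lay between −0.29 (INTS10) and 0.28 (INTS1).

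Whether high and low lay at unequal distances from medium was examined through the sum of the low and high log2 values minus 2 times that of medium. Of the 14 subunits 0 passed in either direction, against 0.0376% of all genes higher and 0.00% lower. An unadjusted p under 0.05 was seen for 1279 of all 18638 genes and for 1 of the 14 subunits (limma). That one was INTS5, at −0.56 and −0.56, with a mean of −0.56 ± 0.17 (SE, adjusted p = 0.523, limma), and it rested on sgRNA 1, without which the value was −0.019 (adjusted p = 0.994, limma). INTS9, at 0.17, and INTS4, at 0.10, had 95% intervals of −0.25 to 0.59 and −0.51 to 0.71 that included 0.

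The sorted populations were also set against T0, after they were joined into a pool by the shares of the gates. Between T0 and the sort, 8 of 14 subunits lost reads and 0 gained, against 8.35% of all genes lower (1556) and 2.54% higher (473). The median log2 fold change was −0.55 over the subunits and 0.04 over all genes. When centred on the sgRNAs without a target, 11 subunits were lower, with INTS6, INTS7 and INTS12 added, and the split over all genes moved to 6072 lower and 22 higher. INTS4 and INTS9 had the largest falls of the 14. The INTS4 pool had 41.3% and 43.3% of the reads of T0, or log2 fold changes of −1.29 and −1.41, with a mean of −1.35 ± 0.10 (SE, adjusted p = 1.28e-11, limma). Without its shallow sgRNA 4, INTS4 was at −1.15, a smaller fall than that of INTS9. The INTS9 pool had 49.96% and 33.2% (−0.99 and −1.54, mean −1.26 ± 0.11 SE, adjusted p = 7.27e-10, limma). The INTS11 pool, by contrast, stood at 96.7% and 73.9% (−0.35 and −0.70, mean −0.52 ± 0.10 SE, adjusted p = 0.000434, limma), and the call of INTS11 was lost without the T0 library of screen 3 (adjusted p = 0.246, limma).

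In the other modules, the summed reads of INTS5 fell to 66.2% and 61.3% of those of T0, and the mean over its sgRNAs was lower still (−1.04 and −1.09, mean −1.06 ± 0.09 SE, adjusted p = 1.35e-09, limma) because sgRNA 1 fell most. Without sgRNA 1 the log2 fold change of INTS5 was −0.59 (adjusted p = 8.94e-08, limma). INTS2 fell on the mean of its sgRNAs (−0.84 and −1.16, mean −1.001 ± 0.10 SE, adjusted p = 1.12e-08, limma), while its summed reads stood at 90.5% and 81.8% of T0, and sgRNA 3, which held most of these reads, did not fall. Without its sgRNA 1 the log2 fold change of INTS2 was −0.56 (adjusted p = 5.44e-07, limma). INTS2 did not pass without the T0 library of screen 3 (adjusted p = 0.105, limma). INTS1 fell to 64.9% and 61.2% (−0.71 and −0.77, mean −0.74 ± 0.09 SE, adjusted p = 1.09e-06, limma) and INTS8 to 72.1% and 64.4% (−0.69 and −0.77, mean −0.73 ± 0.09 SE, adjusted p = 1.29e-06, limma). INTS3 fell to 76.3% and 71.4% (−0.57 and −0.59, mean −0.58 ± 0.09 SE, adjusted p = 4.65e-05, limma). The fall of INTS3 did not pass without the T0 library of screen 2 (adjusted p = 0.185) or of screen 3 (0.246), the high library of screen 2 (0.0534) or the medium library of screen 2 (0.0755, limma).

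The other six subunits did not pass against T0. INTS6 was closest to the threshold, with its pool at 91.2% and 77.7% of T0 and −0.14 and −0.45 (mean −0.30 ± 0.10 SE, adjusted p = 0.0551, limma), and adding 5 reads in place of 1 brought it past (adjusted p = 0.0461, limma). INTS7 was at 0.09 and −0.40 (mean −0.15 ± 0.11 SE, adjusted p = 0.416, limma) and INTS12 at 0.11 and −0.24 (mean −0.07 ± 0.10 SE, adjusted p = 0.747, limma). For the 3 arm subunits, the pool stood at 117% and 110% of T0 for INTS10, 114% and 110% for INTS13 and 96.4% and 104% for INTS14. Their log2 fold changes had 95% intervals of −0.10 to 0.29 for INTS10, −0.0017 to 0.39 for INTS13 and −0.21 to 0.20 for INTS14.

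Of the 56 sgRNAs, 22 were depleted in the pool versus T0 and 1 was enriched in edgeR's test, against 6.28% and 1.00% of the 74428 sgRNAs tested. Here edgeR weighted the populations on the log scale, which lowers the value of an sgRNA spread unevenly over them. The log2 fold changes given beside its p values are those of the pool of scaled reads in each screen. For INTS5 sgRNA 1, edgeR's own value was −3.01. Of 275 tested sgRNAs without a target, 24 were enriched and 0 depleted in this comparison. The depleted sgRNAs fell on 9 subunits, and 8 subunits had at least 2. All 4 sgRNAs against INTS9 were depleted, the most depleted being sgRNA 3 (−1.20 and −1.88) and the least sgRNA 2 (−0.92 and −0.84). For INTS4, sgRNAs 1, 3 and 4 passed, and sgRNA 2 did not (log2 fold changes −0.52 and −1.45, adjusted p = 0.0726, edgeR). For INTS5, sgRNAs 1, 3 and 4 passed, and sgRNA 2 did not (−0.10 and −0.16). The lowest log2 fold changes among the 56 were those of INTS5 sgRNA 1, at −2.61 and −2.34 (adjusted p = 2.19e-05, edgeR), and INTS2 sgRNA 1 followed at −2.31 and −2.32 (adjusted p = 0.000778, edgeR).

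The sgRNAs of 1 gene were not equal in this either. For INTS2, sgRNAs 1, 2 and 4 were depleted and sgRNA 3 was at 0.16 and 0.21. For INTS11, sgRNA 1 (−0.75 and −1.24) and sgRNA 4 (−1.05 and −0.79) were depleted, sgRNA 2 was at 0.11 and −0.83 and sgRNA 3 at 0.31 and 0.07. For INTS8, sgRNAs 2 and 4 were depleted. For INTS1, sgRNAs 1 and 3 were depleted, sgRNA 2 was at −0.60 and −0.79 and sgRNA 4 at −0.45 and −0.33. For INTS3, sgRNA 2 (−0.60 and −0.66) and sgRNA 3 (−0.72 and −0.53) were depleted, and sgRNA 4, at −1.02 and −0.88, had an adjusted p of 0.0501 (edgeR). INTS7 had 1 depleted sgRNA, number 1 (−0.37 and −0.25, adjusted p = 0.0252, edgeR). The sgRNAs against INTS12 had means between −0.25 and 0.13, with none passing, and those against INTS6 between −0.45 and −0.15. The enriched one was INTS10 sgRNA 2, with 676 and 827 scaled reads at T0 and a change of 0.41 and 0.26 on the log2 scale (adjusted p = 0.0434, edgeR). Its mean change lay within the range between the 5th and 95th percentiles of the 278 sgRNAs without a target, −0.077 to 0.57.

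The comparison with T0 uses the same high and low libraries as high versus low, so the 2 were not correlated with each other. Medium versus T0 shares no library with high versus low and could be set beside it, but the 2 are not independent. The gates divided 1 pool of cells, so a knockout with more of its reads in high can have fewer in medium. By the shares of the gates, 46.8% and 42.9% of the INTS9 pool lay in medium, which held about 50% of cells. The same 8 subunits were lower in medium than at T0, against 6.95% of all genes (limma), and of these 8, 6 were higher in high versus low. Over all genes, 43.5% of the 1295 that were lower in medium than at T0 were higher in high versus low. INTS4 (−1.52), INTS9 (−1.45), INTS2 (−1.11) and INTS5 (−1.02) fell by a log2 of at least 1 in medium versus T0. All 4 were higher in high versus low, as were 55.3% of the 656 genes of the library that fell by as much. INTS2 and INTS5 reached this size through their sgRNAs 1, which had few reads, and over sgRNAs with at least 50 mean reads they were at −0.69 and −0.61. Only INTS4 (−1.24) and INTS9 (−1.45) of the 14 subunits then fell by as much, and both were higher in high versus low, as were 381 of 625 genes.

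INTS8 and INTS3 were the subunits that fell since T0 without passing in high versus low. In medium versus T0 they had log2 fold changes of −0.80 and −0.66, beside −0.63 for INTS11 and −0.79 for INTS1, which did pass. Their difference from INTS11 or INTS1 in high versus low was not tested. Across the 14 subunits, medium versus T0 and high versus low had a Pearson r of −0.95 and a Spearman rho of −0.93, and across their 56 sgRNAs −0.82 and −0.75. The same measures were −0.34 and −0.17 across all 18638 genes. Over sgRNAs with at least 50 mean reads, they were −0.93 and −0.89 across the 14 subunits. These are descriptions, since the points share the cells, the screens and the sgRNA library. Between the 2 screens, the high versus low fold changes of the 14 subunits had r = 0.86 and rho = 0.82, beside 0.73 and 0.38 over all genes.

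Genes associated with Integrator were examined in the same way. Of a list of 10 (the PP2A subunits, the INTS6 paralog, the SOSS partners and others), 1 was higher in high versus low and 0 lower, against 5.25% and 2.73% of all genes, with a median log2 fold change of −0.10 beside −0.01 over all genes. The one was NABP2, which binds single-stranded DNA and joins INTS3 in SOSS (0.55 and 0.41, mean 0.48 ± 0.11 SE, adjusted p = 0.0173, limma). INTS15, which links the arm to the rest of the complex, was at −0.09 and −0.29 (mean −0.19 ± 0.11 SE, adjusted p = 0.445, limma), and the paralog INTS6L at −0.02 and −0.36 (mean −0.19 ± 0.12 SE, adjusted p = 0.482, limma). PPP2CA, the catalytic subunit of PP2A, was at −0.18 and −0.22 (mean −0.20 ± 0.11 SE, adjusted p = 0.394, limma), and PPP2R1A, its scaffold, at −0.03 and −0.10 (mean −0.06 ± 0.11 SE, adjusted p = 0.846, limma). Both PP2A genes nevertheless lost reads since T0, PPP2CA with a mean of −0.55 ± 0.10 (SE, adjusted p = 0.00026, limma) and PPP2R1A with a mean of −0.73 ± 0.10 (SE, adjusted p = 2.27e-06, limma). PPP2CA was also higher in low versus medium (0.55 and 0.46, mean 0.51 ± 0.10 SE, adjusted p = 0.0419, limma), a comparison in which 0 of the 14 subunits were higher. In high versus medium it was at 0.37 and 0.24 (mean 0.31 ± 0.10 SE, adjusted p = 0.368, limma), so that both sorted tails lay above medium, and the sum of low and high minus 2 times medium was 0.81 (adjusted p = 0.261, limma). PPP2R1A lay alike without passing, at 0.39 in low versus medium (adjusted p = 0.132) and 0.32 in high versus medium (0.372). Its sum was 0.71 (adjusted p = 0.392, limma).

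Genes that act at the same steps of transcription were listed as well. All gene lists, like the subunits themselves, were chosen with earlier results of these data known. The shares over all genes therefore stand beside their counts as a description and not as a test. Of 9 genes of polymerase pausing and elongation, 6 were higher in high versus low and 0 lower, against 5.25% and 2.73% of all genes, with a median log2 fold change of 0.71. SUPT5H, a subunit of DSIF, was at 1.77 and 1.69 (mean 1.73 ± 0.11 SE, adjusted p = 8.57e-07, limma), CDK9, the kinase of P-TEFb, at 1.63 and 1.45 (mean 1.54 ± 0.11 SE, adjusted p = 2.39e-06, limma), and NELFA, a subunit of the pausing factor NELF, at 0.75 and 0.64 (mean 0.70 ± 0.11 SE, adjusted p = 0.00121, limma). The others that passed were SUPT4H1 (1.46), SUPT6H (1.12) and CCNT1 (0.71). For SUPT4H1, high was 2.36 and 2.43 times low by summed reads, beside a fold of 2.75 from the mean over its sgRNAs. The same values were 1.74 and 1.54 beside 2.17 for SUPT6H, and 1.52 and 1.38 beside 1.63 for CCNT1. Of 15 genes of small nuclear RNA transcription and maturation, 6 were higher and 0 lower, read against the same 5.25% and 2.73%, with a median of 0.37. ELL, an elongation factor of the complex that transcribes these RNAs, was at 2.01 and 1.98 (mean 2.00 ± 0.11 SE, adjusted p = 2.99e-07, limma), SNAPC4, a subunit of their promoter-binding factor, at 0.89 and 2.07 (mean 1.48 ± 0.21 SE, adjusted p = 0.000504, limma), and PHAX, which exports them from the nucleus, at 1.60 and 1.30 (mean 1.45 ± 0.12 SE, adjusted p = 5.62e-06, limma). NCBP2 (1.08), SNAPC2 (0.92) and ZC3H8 (0.63) also passed. By summed reads, high was 2.02 and 2.89 times low for ELL, beside a fold of 3.99 from the mean over its sgRNAs. For NCBP2 the summed reads gave 1.44 and 1.63, beside 2.11. They gave 2.28 and 2.31 for PHAX, beside 2.73, and 2.00 and 4.09 for SNAPC4, beside 2.79. Values without shallow sgRNAs are not given for these genes.

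The counterpart of the cleavage module in messenger RNA processing contained the largest shift of the genes described here. Of 10 cleavage and polyadenylation genes, 6 were higher and 1 was lower, again beside 5.25% and 2.73% of all genes, with a median of 0.85. The lower one was FIP1L1 (−0.71 and −0.60, mean −0.66 ± 0.11 SE, adjusted p = 0.00188, limma). CPSF3, the nuclease and paralog of INTS11, had a summed count of 1152 and 875 scaled reads in high, against 108 and 78.9 in low, with 343 and 266 in medium and 1105 and 1166.5 at T0. Both high libraries were clear of both low libraries, and the log2 fold change was 4.19 and 3.98, with a mean of 4.08 ± 0.11 (SE, adjusted p = 8.42e-09, limma), beside 0.44 for INTS11. The reads of CPSF3 in low were few. By summed reads, high was 10.7 and 11.1 times low, beside a fold of 17.0 from the mean over its sgRNAs. CPSF2, the paralog of INTS9, was at 1.63 and 1.67 (mean 1.65 ± 0.11 SE, adjusted p = 1.17e-06, limma), beside 1.69 for INTS9. SYMPK, the counterpart of INTS4, was at 1.43 and 1.56 (mean 1.49 ± 0.11 SE, adjusted p = 2.75e-06, limma), beside 1.51 for INTS4, or 1.02 without the shallow sgRNA 4 of INTS4. The 95% intervals were 1.41 to 1.88 for CPSF2 and 1.42 to 1.95 for INTS9, and 1.25 to 1.73 for SYMPK and 1.22 to 1.80 for INTS4. Each pair overlaps with all sgRNAs, whereas the interval of CPSF3, 3.84 to 4.33, lies above that of INTS11, 0.20 to 0.69. Without sgRNA 4 the INTS4 interval ended at 1.2507, just below the start of SYMPK's at 1.2524, which is over all its sgRNAs. These intervals leave out the spread between sgRNAs, and no difference between genes was tested. In the pool versus T0, CPSF3 fell by 1.49, CPSF2 by 1.70 and SYMPK by 0.63 on the log2 scale, beside 0.52 for INTS11, 1.26 for INTS9 and 1.35 for INTS4. Without its sgRNA 4, INTS4 was at −1.15. WDR33 (1.56), CPSF4 (0.94) and CPSF1 (0.76) were the other genes of this list that were higher in high versus low. For WDR33, high was 2.19 and 2.50 times low by summed reads, beside a fold of 2.95 from the mean over its sgRNAs. The same values were 2.11 and 1.51 beside 1.92 for CPSF4, and 1.53 and 1.51 beside 1.70 for CPSF1.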

How the data were processed

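The authors deposited raw read counts per sgRNA, obtained with MAGeCK according to the methods and the submitters' processing notes, in 4 lanes for every library. An aligner and a build are not given in the sources used here. Columns that matched no sample, 4 in number, were left out. The lanes of a library hardly differed beyond sampling noise (1.02 to 1.03 chi-square per degree of freedom over sgRNAs with at least 20 reads, and 5.76 to 7.34 between screens) and were added up to 8 libraries of 23369720 to 31777138 reads. Because PCR copies cannot be told apart without molecular identifiers, errors from counting cover less than the full error.

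After scaling to the mean of the library totals and addition of a pseudocount of 1 read, log2 fold changes were computed per sgRNA inside each screen, and a gene took the mean of its sgRNAs. Whether the mean of both screens differed from 0 was tested with limma 3.58.1 (R 4.3.3), with prior degrees of freedom of 10.2 for high versus low, and Benjamini-Hochberg adjustment covered 18659 entries, of which 18638 were genes. The sorted pool was 0.25 high plus 0.25 low plus 0.5 medium, on scaled reads for limma and on the log scale for edgeR. For each sgRNA, edgeR 4.0.16 was run (quasi-likelihood, on the deposited count values, screens as blocks, at least 10 reads in at least 2 libraries). The high versus low tests were also run on simulated data with known changes. The steps of the gene test follow the study's methods, which name neither the scaling nor the pseudocount, and core-essential genes, which the study removed, were kept. The same replicate number was taken as the same screen, because the study states that there were independent screens. The deviations from the population means of libraries with the same number correlated at 0.123 for high and low, 0.161 for high and medium and 0.158 for low and medium, and at 0.0671 to 0.0862 for a sorted population and T0.

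All 14 subunits were named in each comparison. Single sgRNAs are given for each subunit past limma's threshold in high versus low or the pool versus T0, and otherwise where they passed edgeR. Other genes come from 4 lists and are named where they passed limma, except CPSF3, CPSF2, INTS6L, PPP2CA, PPP2R1A and INTS15, which are always named. The members and lists were chosen with earlier results of these data known. Gene names and coordinates were taken from GENCODE (release 44, GRCh38), where 18585 of 18638 Ensembl identifiers had a name. Alternatives changed the pseudocount, the filter on reads, the summary over sgRNAs, the scaling, the centring, the pool, the test and the libraries. Medium alone versus T0 with a minimum of 50 mean reads was added after the data were seen. When 1 library was left out, limma was run on the remaining libraries with the screen as a block, and the lone library of a population was assumed to vary like the others. DESeq2 1.42.0 was an alternative for single sgRNAs. Python 3.11.15 prepared the counts.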

Additional observations from a re-analysis of the deposited data

How the results depend on the processing

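The limits are those of 2 screens and of depth: sgRNAs with few reads, such as sgRNA 4 against INTS4 (35.2 scaled reads on average), sgRNA 1 against INTS5 (25.9) and sgRNA 1 against INTS2 (24.9), enter a gene's mean with the same weight as deep ones. In high versus low, INTS9, INTS4 and INTS5 passed under all alternatives run, INTS11, INTS1, INTS2 and INTS12 did not. The count of subunits higher stayed within 1.5 times of 6 except in fits without 1 library, which gave 3 to 6. The count lower was 2 in place of 1 with a pseudocount of 5 reads, a minimum of 50 mean reads or the median over sgRNAs, with INTS10 added. It was 0 after centring on sgRNAs without a target and with limma on the libraries with or without the replicate block, and 0 to 1 without 1 library. With limma on the libraries, 4 subunits were higher with the replicate block and 4 with no replicate block. INTS11 then had an adjusted p of 0.0761 and 0.14, and INTS2 of 0.0515 and 0.0586. In low versus medium, the count lower of 2 was 1 with a minimum of 50 mean reads and 1 with no replicate block, and 0 to 3 without 1 library. INTS5 also missed the threshold by the median over sgRNAs (adjusted p = 0.234, limma). Between high and medium, the count higher of 2 was 1 with limma on the libraries with the replicate block, 0 with no replicate block, and 1 to 2 without 1 library. In the pool versus T0, the count lower of 8 was 5 to 8 without 1 library, 8 with either fit on the libraries, 8 for medium alone over sgRNAs with at least 50 mean reads (chosen after seeing the data), and otherwise within 1.5 times. In no alternative did a subunit pass in the test of unequal distances from medium.

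For single sgRNAs in high versus low, DESeq2 called 6 enriched in place of 11 and 1 depleted in place of 3, and the fit with no replicate block 8 enriched and 1 depleted. Without 1 library, 3 to 12 were enriched and 0 to 3 depleted. In the pool versus T0, 11 to 25 were depleted without 1 library, in place of 22, and the 1 enriched sgRNA was lost with DESeq2 (0) and with no replicate block (0), with 0 to 1 without 1 library.

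Log2 fold changes that changed sign belonged to subunits that did not pass in that comparison. In the pool versus T0, centring on sgRNAs without a target gave −0.14 for INTS10 and −0.043 for INTS13, and equal weights gave 0.011 for INTS14. In high versus low, INTS7 was at 0.049 after the same centring and at 0.016 by the median. Without 1 library or 1 screen, high versus low ran from −0.31 to 0.076 for INTS14, from −0.33 to 0.44 for INTS3, from −0.027 to 0.37 for INTS6 and from −0.28 to 0.22 for INTS7. The pool versus T0 ran from −0.24 to 0.11 for INTS12, from −0.18 to 0.13 for INTS14 and from −0.42 to 0.087 for INTS7. The cause of these changes was not tested.

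Counts over all genes moved as well. In high versus low, 308 were lower after centring and 336 with no replicate block, in place of 508. In low versus medium, the median over sgRNAs gave 337 higher and 487 lower, and the fit with no replicate block 125 and 133, in place of 219 and 287. In high versus medium, 602 were higher and 71 lower by the median and 573 and 33 after centring, in place of 316 and 18. In the pool versus T0, 473 genes were higher, against 291 with median-of-ratios size factors, 154 and 111 with limma on the libraries with and without the block, 174 with weights on log2 values, 94 for medium alone, 160 for medium alone over sgRNAs with at least 50 mean reads and 22 after centring. The test of unequal distances called 7 genes higher and 0 lower, against 2 to 209 and 0 to 32 with all libraries in the alternatives. Of all sgRNAs, DESeq2 called 633 depleted in high versus low in place of 1154, and the fit with no replicate block 432 enriched in the pool versus T0 in place of 748. Without 1 library, high versus low gave 496 to 979 genes higher and 136 to 508 lower, low versus medium 20 to 219 and 11 to 287, high versus medium 278 to 405 and 18 to 51, the test of unequal distances 0 to 83 and 0 to 15, and the pool versus T0 41 to 127 and 929 to 1395. For sgRNAs, high versus low then gave 1319 to 2220 enriched and 468 to 1189 depleted, and the pool versus T0 242 to 695 and 2995 to 4546.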
